A study of Homo sapiens with 3 samples.

Results

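The HOX genes of H9 cells were examined by cluster and by position along each cluster. They were taken as every protein-coding gene of GENCODE release 44 whose symbol is HOXA, HOXB, HOXC or HOXD followed by a number. This gave 39 genes, namely 11 HOXA, 10 HOXB, 9 HOXC and 9 HOXD genes, out of 19629 protein-coding genes with counts and 58051 genes listed in all. H9 is an established line of human embryonic stem cells (hESC), here of wild-type (WT) genotype, grown in Essential 8 Flex medium on vitronectin and given no treatment. Total RNA of 3 replicates was depleted of ribosomal RNA and sequenced, and the libraries gave 10390984, 12024802 and 8655155 reads counted on genes. There is 1 condition, so that no groups could be compared and no test was made. Nothing in the labels says whether the replicates came from separate cultures, and the spread between them may be technical.

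HOX genes encode transcription factors that bind DNA through a homeodomain and give cells of the embryo their position along the head-to-tail axis. They lie in 4 clusters on separate chromosomes, and members with the same number in different clusters are paralogs. There are 13 such paralog groups. Low-numbered genes lie at the 3′ end of a cluster, are switched on early and act in the hindbrain and neck, whereas high-numbered genes lie at the 5′ end, are switched on late and act in the trunk, limbs and genital region. In pluripotent stem cells the clusters are known as a classic target of Polycomb repression, with chromatin that carries active and repressive histone marks together.

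Before the HOX genes were examined, the label of the cells was checked against marker genes. All 6 pluripotency markers were above 3 reads in every replicate, with mean levels from 275 to 2576 TPM (a transcript level, in which reads per exon length are scaled to the same sum in each library), among them POU5F1 at 799 TPM. Markers of other cell types were also read at lower levels. All 3 mesendoderm markers (1.75 to 22.3 TPM), all 4 endoderm markers (0.961 to 7.54 TPM), 2 of 3 neural markers (0 to 2.97 TPM), all 3 neural crest markers (0.397 to 34.1 TPM) and 3 of 4 markers of trophectoderm and amnion (0 to 6.70 TPM) passed the same limit. Of the neural crest markers, FOXD3 had 34.1 TPM, SOX10 0.624 TPM and TFAP2A 0.397 TPM. The high level was thus that of FOXD3 alone and does not by itself show neural crest cells. NEUROG2 and CDX2 were the markers without a read. In RNA from whole cultures, few cells that express a gene cannot be told apart from little RNA per cell, and the part of other cell types in the HOX reads below was not tested.

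Of the 39 HOX genes, 25 had no read in any of the 3 replicates, or 64.1%, beside 13.5% of all protein-coding genes. A further 9 genes had 1 or 2 reads in the 3 libraries together. Only HOXB13 had more than 3 reads in every replicate, or 2.56% of HOX genes beside 71.9% of protein-coding genes, where 3 reads is what a count of 0 still allows. HOXB7 also passed this limit when replicate 2 was left out, and HOXB2 when replicate 3 was. The mean level was below 0.01 TPM, the limit under which the study called a gene nonexpressed, for the same 25 genes, beside 13.6% of protein-coding genes. It reached 1 TPM in 2 HOX genes, HOXB13 and HOXB7, or 5.13%, beside 67.4% of protein-coding genes, and only in HOXB13 without replicate 3. The median HOX gene stood at 0 TPM and the median protein-coding gene at 7.10 TPM. Together the HOX genes held 95, 76 and 71 reads in replicates 1, 2 and 3, or 9.14, 6.32 and 8.20 CPM (counts scaled to library size). The heat map of reads by cluster and paralog group shows where these reads fell.

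**Figure D1:**
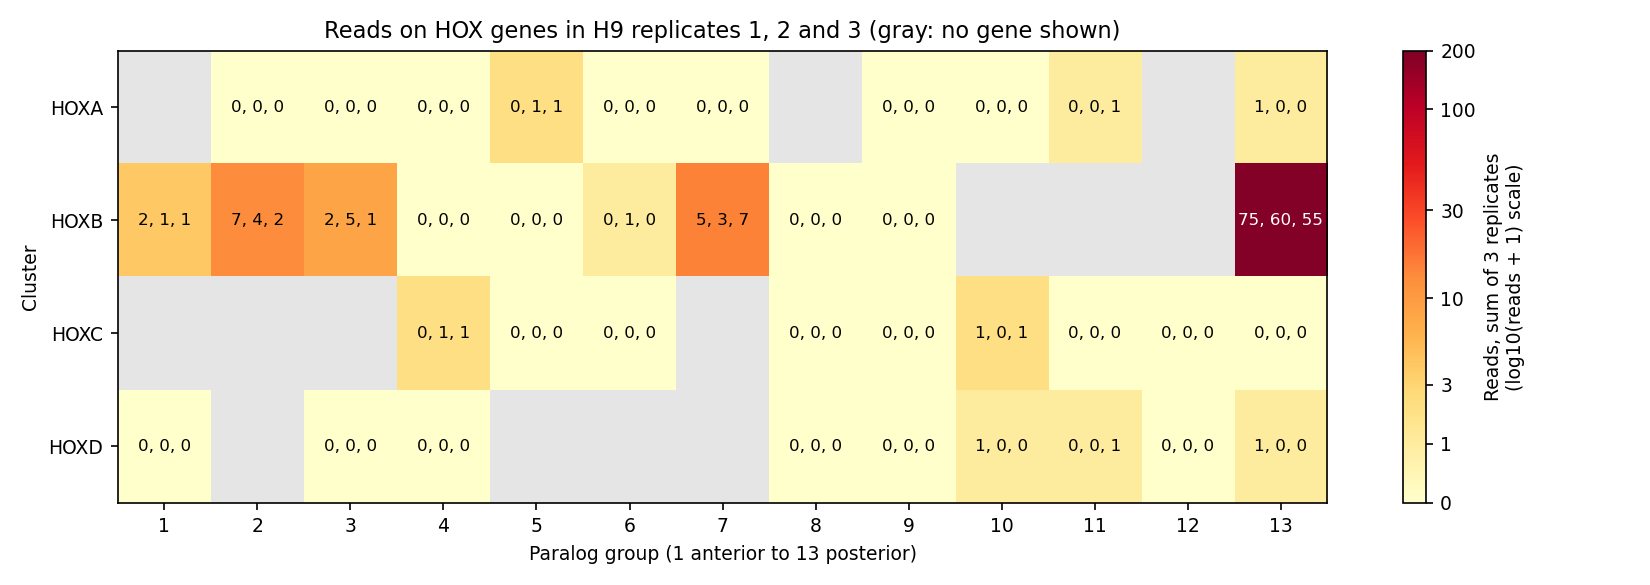
Reads counted on HOX genes, with the 4 clusters as rows and the 13 paralog groups as columns, where each coloured cell prints the counts of replicates 1, 2 and 3 and its colour gives their sum on a log10(reads + 1) scale. HOXB13, with 75, 60 and 55 reads, stands apart from the other genes, which have 0 to 15 reads in all.

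A count of 0 does not show that a gene was silent, and the depth sets how low its level must have been. With 3 reads over the 3 libraries taken as the limit, the 25 genes without a read were below a level between 0.0887 and 0.336 TPM, depending on exon length. This takes the whole exon length as countable. How reads on bases shared with other genes were counted is not known, and if they were left out, the limits of overlapping genes were higher. These limits, and the Poisson intervals given below, cover counting error only, since PCR copies of a fragment are not independent molecules. The use of strand in the counting is not given in the sources used here, so that reads of a HOX gene and of an antisense transcript over the same exons cannot be told apart. Exons of 16 HOX genes overlap those of another gene on the same strand and exons of 20 overlap a gene on the opposite strand. The overlap was largest for HOXC5, with 67.3% of its exon length shared on the same strand, and for HOXA7, with 62.5% shared on the opposite strand. Of the 14 HOX genes whose exons overlap no other gene, 9 had no read, so that genes without a read were also found where no overlap exists.

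The HOXB cluster held 231 of the 242 HOX reads, or 95.5%. Summed over its 10 genes, the level of HOXB was 12.3, 8.20 and 10.8 TPM in replicates 1, 2 and 3, with a mean of 10.4 ± 2.06 TPM (SD, n = 3). The summed level of the 11 HOXA genes was 0.0758, 0.192 and 0.431 TPM, with a mean of 0.233 ± 0.181 TPM (SD, n = 3). For the 9 HOXC genes it was 0.162, 0.119 and 0.353 TPM (mean 0.211 ± 0.124, SD, n = 3), and for the 9 HOXD genes 0.313, 0 and 0.213 TPM (mean 0.175 ± 0.160, SD, n = 3). HOXA, HOXC and HOXD did not differ by more than these SDs, and each rested on 3 or 4 reads. HOXB was above the other clusters in every replicate. Most of that level came from HOXB13. Without it, the remaining 9 HOXB genes summed to 2.77, 1.67 and 2.68 TPM, and the 29 genes of the other 3 clusters together to 0.551, 0.312 and 0.997 TPM, so that these ranges did not overlap.

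HOXB13, a posterior HOX gene known for its part in the development of the prostate, lies at the 5′ end of its cluster (ENSG00000159184, chromosome 17, 48724763 to 48728750, minus strand, GRCh38). It had 75, 60 and 55 reads in replicates 1, 2 and 3, and levels of 9.48, 6.52 and 8.15 TPM. The mean of 8.05 ± 1.48 TPM (SD, n = 3) put it at percentile 51.6 of the protein-coding genes. Thus the HOX gene with the highest level stood near the middle of all protein-coding genes. By library size, its reads came to 7.22 CPM in replicate 1 (exact Poisson 95% interval 5.68 to 9.05), 4.99 in replicate 2 (3.81 to 6.42) and 6.35 in replicate 3 (4.79 to 8.27). These intervals overlap. None of its 3039 exon bases is shared with another annotated gene on either strand. Protein-coding genes that were not nonexpressed were divided into classes of equal size, as in the methods of the study. Their boundaries were 3.35 and 27.0 TPM, and HOXB13 was in the medium class in each replicate. No HOX gene was in the high class, and 13 were in the low class.

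After HOXB13, the genes with the most reads also belonged to HOXB. HOXB7, a central gene of the cluster, had 5, 3 and 7 reads and 1.26, 0.652 and 2.07 TPM, with a mean of 1.33 ± 0.714 TPM (SD, n = 3). HOXB2, which acts in the hindbrain, had 7, 4 and 2 reads and 1.09, 0.538 and 0.367 TPM (mean 0.667 ± 0.381, SD, n = 3). The gap between the means of HOXB7 and HOXB2 was within the SD of HOXB7, and both means were below every replicate of HOXB13. HOXB3, a hindbrain gene next to HOXB2, had 2, 5 and 1 reads and a mean of 0.129 ± 0.0839 TPM (SD, n = 3). HOXB1, the most anterior gene of the cluster and known for its role in the fourth rhombomere of the hindbrain, had 2, 1 and 1 reads and a mean of 0.208 ± 0.0910 TPM (SD, n = 3). HOXB1 and HOXB3 differed by less than their SDs. HOXB6 had 1 read, in replicate 2, and HOXB4, HOXB5, HOXB8 and HOXB9 had none. Exons of HOXB1 and HOXB7 overlap no other gene, whereas 3.54% of the exon length of HOXB2 is shared on the opposite strand and 6.42% of that of HOXB3 on the same strand. The annotated span of HOXB7 (48607232 to 48633572) runs across HOXB8 and HOXB9, which had no read.

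By position, reads were found at both ends of HOXB and at HOXB7 between them. All 25 reads of the 8 genes of paralog groups 1 to 3 lay on HOXB1, HOXB2 and HOXB3, whereas HOXA2, HOXA3, HOXD1 and HOXD3 had none. Summed, groups 1 to 3 had a level of 1.51, 0.894 and 0.609 TPM (mean 1.00 ± 0.459, SD, n = 3). The 15 genes of groups 4 to 8 had 20 reads, of which 15 lay on HOXB7, and 1.26, 1.09 and 2.50 TPM (mean 1.62 ± 0.768, SD, n = 3). The gap between the means of the anterior and central groups was within the SD of the central groups. The 16 genes of groups 9 to 13 had 197 reads and 10.03, 6.52 and 8.73 TPM (mean 8.43 ± 1.77, SD, n = 3), above both other groups in every replicate. This order came from HOXB13 alone. Without it, the remaining 15 posterior genes had 7 reads and 0.551, 0 and 0.572 TPM, below the anterior and the central groups in every replicate. In replicate 3 they had 3 reads beside 4 for the anterior groups, which is too few to tell these apart. HOXB7 was kept in the central groups.

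The posterior HOX genes are paralogs of each other and several of them pattern the limbs. HOXA13 and HOXD13, which shape the digits and the genital tract, had 1 read each, both in replicate 1, and HOXC13, known from hair follicles, had none, beside the 190 reads of their paralog HOXB13. Group 10 had 2 reads on HOXC10 and 1 on HOXD10. In group 11, HOXA11 and HOXD11 had 1 read each, both in replicate 3. No member of group 8, 9 or 12 had a read, which includes HOXA9, a gene known from leukemia, and HOXC8 and HOXC9, which specify motor neurons of the spinal cord. Among central genes, HOXA5, needed for lung development, and HOXC4 had 1 read each in replicates 2 and 3. The 9 genes with 1 or 2 reads had mean levels from 0.0253 TPM for HOXA13 to 0.151 TPM for HOXA5. The remaining genes, HOXA4, HOXA6, HOXA7, HOXA10, HOXC5, HOXC6, HOXC11, HOXC12, HOXD4, HOXD8, HOXD9 and HOXD12, had no read.

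The clusters were then set against the genes around them. Among the 3 nearest protein-coding genes on each side of the clusters, 24 in all, 21 had more than 3 reads in every replicate, as did 71.9% of all protein-coding genes. Levels of the 24 ranged from 0 to 674 TPM with a median of 17.7 TPM. Their distances from the clusters ranged from 8758 bp (EVX2) to 1027759 bp (NFE2L2). The nearest of them were low, with 0 TPM for EVX2, 2.14 TPM for TTLL6 (33483 bp) and 0.444 TPM for EVX1 (42608 bp). HOXA lies beyond CBX3 (212 TPM), which encodes a heterochromatin protein, and SKAP2 (3.77 TPM) on its side of low-numbered genes. On the other side are HIBADH (40.6 TPM) and, between it and HOXA13, the homeobox gene EVX1, with 5, 5 and 2 reads. Genes of the same family stand near other clusters, such as CBX1 (287 TPM) near HOXB and CBX5 (305 TPM) near HOXC. The other neighbors that did not pass the limit were EVX2, a homeobox gene beside HOXD13 with no read, and SKAP1, beside HOXB1, with 1, 1 and 0 reads. The plot of genes in chromosome order shows HOX genes at or near 0 TPM between these neighbors, apart from the HOXB13 end of HOXB.

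**Figure D2:**
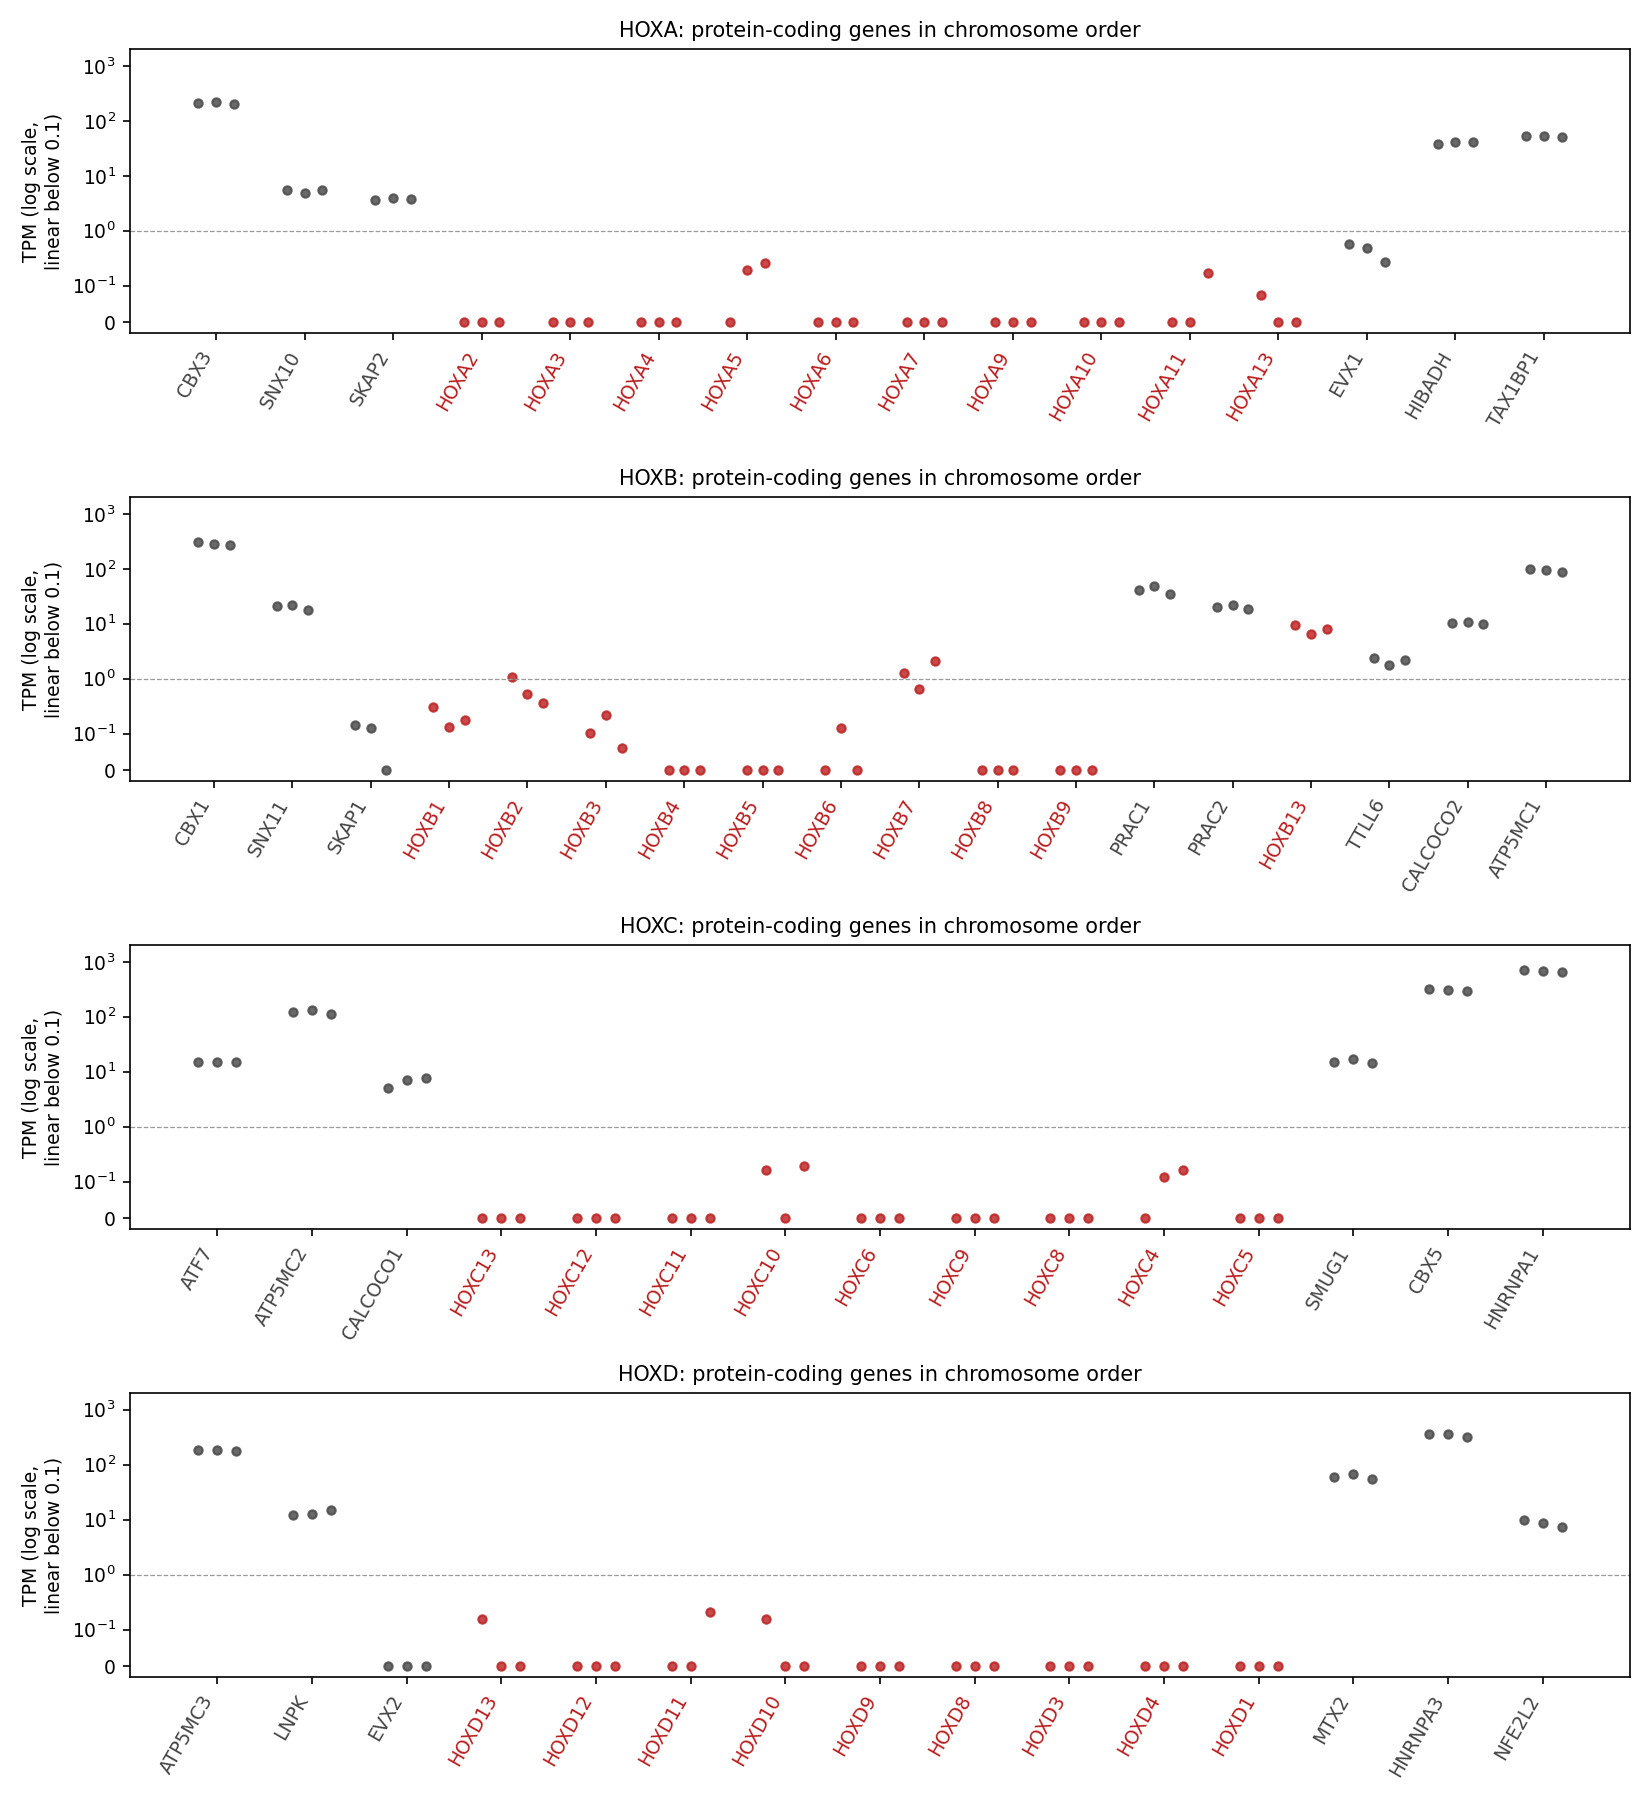
Levels in TPM (log axis, linear below 0.1, dashed line at 1 TPM) of HOX genes (red) and of the nearest protein-coding genes (gray), ordered by their lowest coordinate, with 1 dot for each of 3 replicates. HOX genes sit at 0 or below 1 TPM, except HOXB13 (6.52 to 9.48 TPM) and replicates of HOXB7 and HOXB2, while 21 of the 24 neighbors have means from 2.14 to 674 TPM.

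Reads were also counted in longer intervals around the clusters. The interval around HOXA ran for 530 kb between the nearest protein-coding genes with more than 3 reads in every replicate, SKAP2 and HIBADH. It held 50 counted genes of every biotype with 21 reads in total. None of the 50 genes passed the limit, which 33.1% of all genes of every biotype did (40.8% had no read). For the 13 protein-coding genes among them this followed from the choice of the ends, so that the 33.1% overstates the contrast. Only the other genes in the interval could pass, and 12.6% of all genes that are not protein-coding did. For HOXC, the interval from CALCOCO1 to SMUG1 spanned 394 kb and held 29 genes with 35 reads, and for HOXD, that from LNPK to MTX2 spanned 267 kb and held 18 genes with 16 reads. None of these genes passed the limit either, which for the protein-coding ones again followed from the choice of the ends. The clusters themselves span 107 kb (HOXA), 117 kb (HOXC) and 98.2 kb (HOXD). Since no HOX gene of these clusters passed the limit, the intervals had to be longer than the clusters. HOXB differed in layout. Its interval ran for 598 kb from SNX11 to PRAC1, inside the cluster, with 29 genes and 83 reads, and the 1 gene that passed the limit was a long noncoding RNA (lncRNA) gene outside the cluster on the SNX11 side.

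PRAC1 and PRAC2, small genes named for their expression in prostate and rectum, lie between HOXB9 and HOXB13 and passed the limit together with HOXB13. PRAC1 (chromosome 17, 48721719 to 48722518, minus strand) had 41, 55 and 30 reads and a mean of 41.4 ± 6.10 TPM (SD, n = 3). PRAC2 (48723185 to 48724758, plus strand) had 34, 42 and 26 reads and a mean of 20.1 ± 1.71 TPM (SD, n = 3). Both were above HOXB13 per exon length in every replicate. PRAC2 ends 4 bp from the end of HOXB13 and lies on the other strand, and 666 bp separate it from PRAC1. By contrast, 98.4 kb separate HOXB13 from HOXB9, although the annotated span of HOXB7 reaches into this stretch, to 48633572. From HOXB1 to HOXB9, the longest stretch outside the annotated span of every HOXB gene is 9.88 kb. TTLL6, which follows HOXB13 at a distance of 33.5 kb, had 32, 28 and 25 reads and 2.14 ± 0.302 TPM (SD, n = 3). HOXB13 and the PRAC genes thus formed a small group with reads in every replicate at the far end of the cluster, as the plot of the HOXB locus shows.

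**Figure D3:**
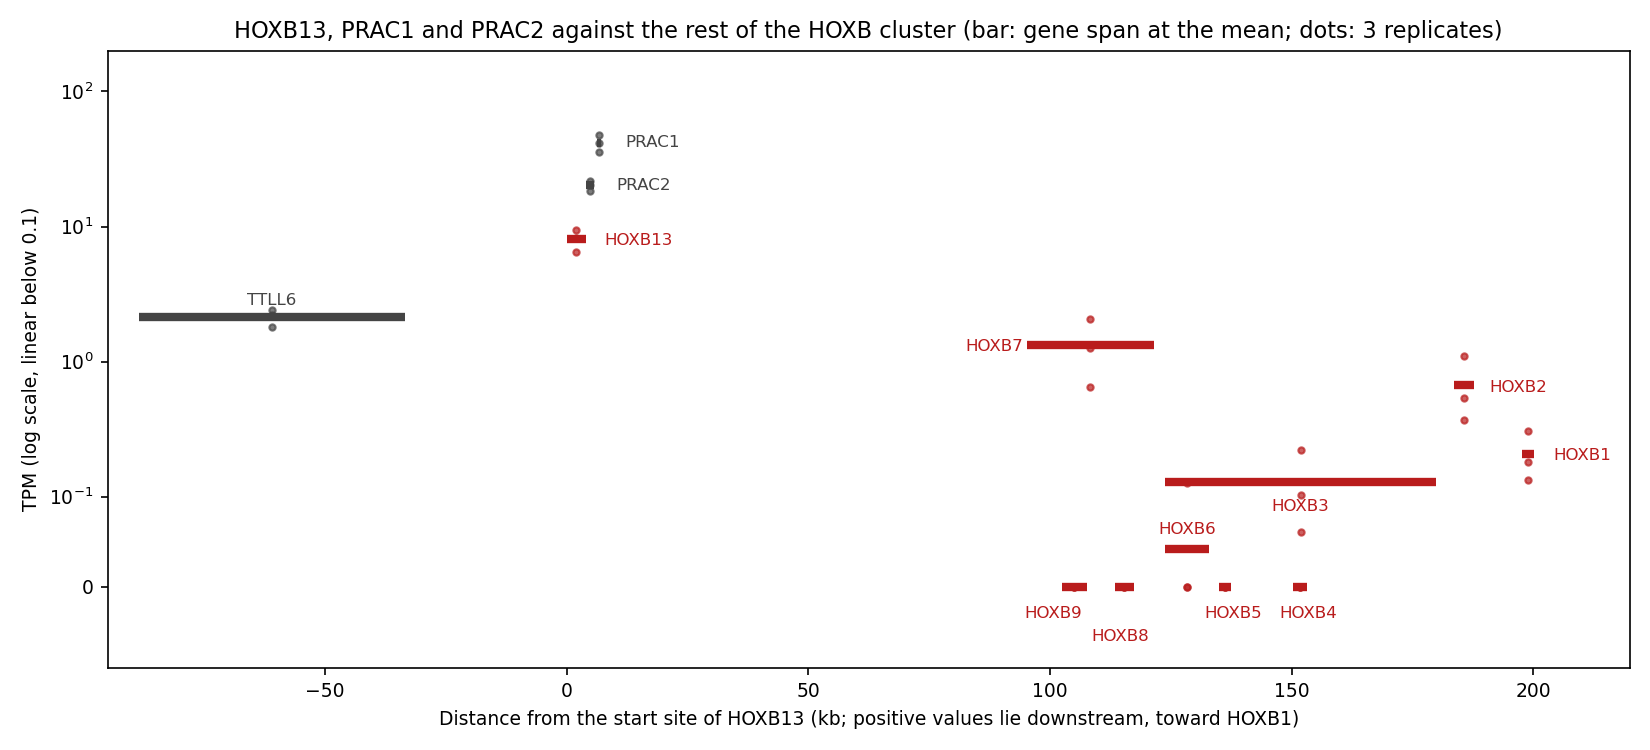
Level in TPM (log axis, linear below 0.1) against distance in kb from the start site of HOXB13, with each bar spanning a gene at its mean level and dots for the 3 replicates, HOX genes in red and other protein-coding genes in gray. HOXB13 (8.05 TPM), PRAC2 (20.1 TPM) and PRAC1 (41.4 TPM) lie together, 95.4 kb or more from HOXB9. The other HOXB genes lie at 1.33 TPM or lower.

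Noncoding genes inside the clusters were examined next. Between the outermost HOX genes of the 4 clusters lie 58 genes that are not HOX genes, of which 48 had no read and 3 passed the limit, namely PRAC1, PRAC2 and the microRNA gene MIR3185. Of these genes, 54 are not protein-coding, and 46 of the 54 had no read, or 85.2%, beside 55.2% of all genes that are not protein-coding. MIR3185 was the 1 noncoding gene that passed the limit, which 12.6% of all such genes did. Many of them are short RNAs, for which a count of 0 sets only a loose limit on the level. Several also lie wholly within exons of another gene on the same strand. How reads on shared bases were counted is not known, so that a count of 0 for these need not mean a lack of reads. Of the 28 lncRNA genes, 24 had no read, or 85.7%, beside 37.4% of all lncRNA genes, and none passed the limit, beside 24.3%. All 28 together had 10 reads. HOTAIR, a lncRNA of HOXC known for its link to Polycomb proteins, and HOTTIP and HOTAIRM1, at the posterior and anterior end of HOXA, had no read. No other gene inside HOXA and HOXC had a read, out of 22 and 14 genes that are not HOX genes. The lncRNA HAGLR of HOXD had 1, 2 and 0 reads, HOXB-AS1 had 0, 2 and 0, and LINC02086, between HOXB9 and PRAC1, had 2, 2 and 0. A noncoding gene of HOXD without a name (176189919 to 176192538, minus strand), not a lncRNA, had 1, 5 and 1 reads. It overlaps HOXD1, and 37.7% of its exon length is shared on the opposite strand.

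The sequence at the start sites was examined because CpG dinucleotides are known to be frequent at HOX promoters, as at most promoters that are active in many cell types. RefSeq windows of 300 bases, from 250 before to 50 after the start (GRCh38.p14), were at hand for 20 of the 39 HOX genes, and for HOXA3 and HOXA10, with several starts, the window with the most CpG was used. The 20 genes had a median of 24.5 CpG per window, with quartiles of 15 and 29 and a range of 4 to 44. This was no more than in all 15251 protein-coding genes with a window, which had a median of 25 and quartiles of 12 and 34. HOXC4 and HOXC5 share a window. 3 windows are printed 5′ to 3′ with each CpG in capitals, for the highest number (HOXA13, 44 CpG, chr7:27200042-27200341, minus strand), a number near the median (HOXD13, 24 CpG, chr2:176092471-176092770, plus strand) and the lowest (HOXD4, 4 CpG, chr2:176151300-176151599, plus strand).
HOXA13: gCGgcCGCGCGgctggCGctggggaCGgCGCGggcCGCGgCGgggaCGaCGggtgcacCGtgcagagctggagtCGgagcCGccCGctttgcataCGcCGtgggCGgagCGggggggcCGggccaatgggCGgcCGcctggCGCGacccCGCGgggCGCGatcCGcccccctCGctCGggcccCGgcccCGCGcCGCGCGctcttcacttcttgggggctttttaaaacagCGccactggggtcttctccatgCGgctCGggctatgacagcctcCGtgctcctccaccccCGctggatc
HOXD13: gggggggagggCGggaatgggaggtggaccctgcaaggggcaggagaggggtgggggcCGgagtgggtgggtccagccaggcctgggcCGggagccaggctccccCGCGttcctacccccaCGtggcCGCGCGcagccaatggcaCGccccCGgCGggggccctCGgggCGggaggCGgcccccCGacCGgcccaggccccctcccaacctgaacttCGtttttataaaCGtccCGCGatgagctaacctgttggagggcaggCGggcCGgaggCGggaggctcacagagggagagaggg
HOXD4: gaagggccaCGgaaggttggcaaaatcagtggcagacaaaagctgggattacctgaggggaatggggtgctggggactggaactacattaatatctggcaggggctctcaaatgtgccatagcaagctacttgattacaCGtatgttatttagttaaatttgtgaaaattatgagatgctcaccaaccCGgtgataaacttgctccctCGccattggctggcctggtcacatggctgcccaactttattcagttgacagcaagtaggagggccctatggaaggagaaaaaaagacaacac

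In these libraries HOXA13 and HOXD13, with CpG spread along the whole window, had 1 read each, and HOXD4, with few CpG, had none. The 13 HOX genes with a window but without a read had a median of 25 CpG. By comparison, the median was 4 CpG among 1803 nonexpressed protein-coding genes with a window, 16 in the low class, 29 in the medium class and 29 in the high class. In the range from 25 CpG upward, 139 of 7684 protein-coding genes, HOX genes included, were nonexpressed, or 1.81%, whereas 8 of the 10 HOX genes there were, or 80%. Below it, 22.0% of 7567 protein-coding genes and 5 of 10 HOX genes were nonexpressed. The windows came from the annotation, and no measure of methylation or chromatin was made from them. The limit of 25 CpG was set by the median of the HOX genes themselves. HOXB13, HOXB7 and HOXB2 are among the 19 genes without an entry, so that the comparison holds mostly genes of HOXA and HOXD.

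**Figure D4:**
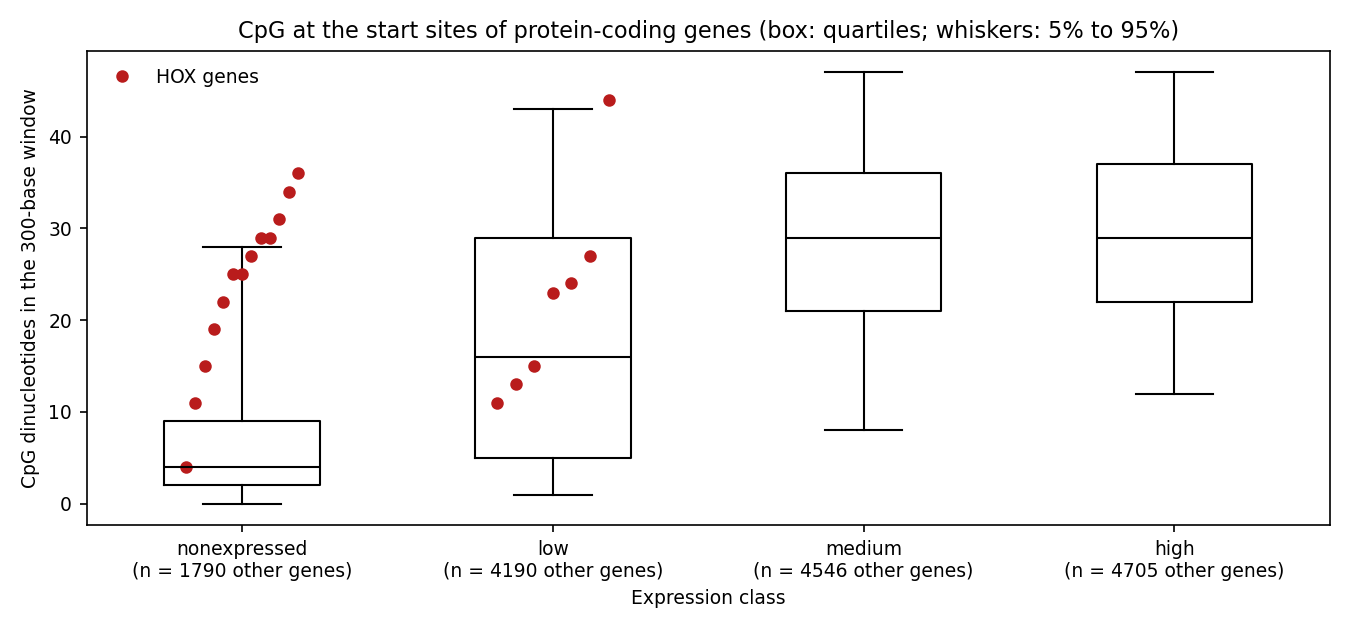
Number of CpG dinucleotides in the 300 bases around the start site (vertical axis) by expression class, with boxes for the quartiles and whiskers from 5% to 95% of protein-coding genes other than HOX genes, and red dots for the 20 HOX genes with a window. The 13 nonexpressed HOX genes lie between 4 and 36 CpG with a median of 25, and the box of the other nonexpressed genes lies around a median of 4.

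HOX proteins bind DNA together with cofactors of the TALE class, the PBX, MEIS and PKNOX proteins, and a pair of PBX and HOX proteins recognizes sites close to TGATNNAT. These letters were searched on both strands. They were found in 3 of 26 distinct HOX windows, those of HOXB1, HOXA2 and HOXD11, beside 7.40% of all 35116 RefSeq windows. The window of HOXB1 (chr17:48530962-48531261, minus strand) is printed with the match in capitals, since HOXB1 is known to act on its own gene through sites of this kind.
HOXB1: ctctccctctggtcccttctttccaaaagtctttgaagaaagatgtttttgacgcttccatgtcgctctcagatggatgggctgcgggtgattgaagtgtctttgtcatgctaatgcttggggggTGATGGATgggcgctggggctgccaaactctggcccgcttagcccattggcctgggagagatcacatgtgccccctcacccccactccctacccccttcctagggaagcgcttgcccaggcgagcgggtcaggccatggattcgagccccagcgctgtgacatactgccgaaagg

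A match of letters does not show that a protein binds there, and HOXB1 had 4 reads in all. Of 9 genes of TALE cofactors, 7 had more than 3 reads in every replicate, or 77.8%, beside 71.9% of protein-coding genes, and their median level was 9.70 TPM, beside 7.10 TPM. As a list the cofactors thus stood near the protein-coding genes as a whole. PBX2 had 80.9, 78.8 and 77.8 TPM (mean 79.1 ± 1.60, SD, n = 3). PBX3 had 43.2, 44.5 and 45.8 TPM (mean 44.5 ± 1.30, SD, n = 3), and PKNOX1 had a mean of 21.3 TPM. The lowest replicate of PBX2 or PBX3 was thus above the highest replicate of any HOX gene. MEIS genes, whose products bind together with PBX, were lower than PBX2 and PBX3, at 9.70 TPM for MEIS3 and 0.865 TPM for MEIS2. MEIS1 had 0.136 TPM, with 2, 3 and 6 reads. Not every PBX or PKNOX gene was above the MEIS genes, since PKNOX2 had 5.69 TPM and PBX4 0.343 TPM, with 1, 2 and 3 reads for PBX4.

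A list of regulators that act upstream of HOX genes and of their ParaHox relatives was read more rarely than the cofactors. It also held EVX1, EVX2, MNX1, MEOX1 and MEOX2, homeobox genes that belong to neither class. Of 13 genes, 2 had more than 3 reads in every replicate, CDX4 among them, or 15.4% beside 71.9% of protein-coding genes. A further 5 had no read, CDX1, CDX2, GSX1, PDX1 and EVX2, or 38.5% beside 13.5%. CDX4, which like the other CDX genes activates central and posterior HOX genes in the embryo, had 7, 7 and 12 reads and 1.64, 1.41 and 3.29 TPM (mean 2.11 ± 1.03, SD, n = 3). Among the lists compared, HOX genes had the largest share of nonexpressed genes, 64.1%, beside 38.5% of this list of 13 genes, 8.33% of 36 other homeobox genes and none of the 9 cofactors, as the bars of expression class by gene list show. The lists were chosen by name and were not tested against each other.

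**Figure D5:**
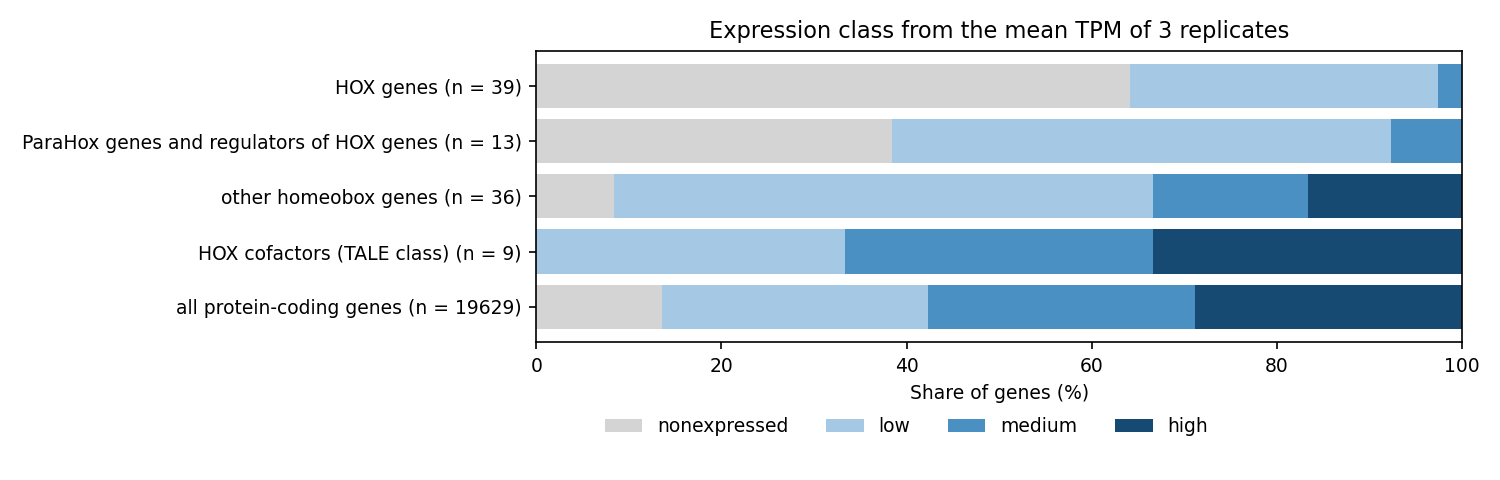
Share of genes in percent (horizontal axis) that were nonexpressed (below 0.01 TPM) or in the low, medium or high class, for the HOX genes, 3 lists of related genes and all protein-coding genes, with the number of genes beside each name. The gray part is 64.1% of HOX genes, 38.5% of the list of regulators and ParaHox genes (with EVX, MNX and MEOX genes), 8.33% of other homeobox genes, 0% of cofactors and 13.6% of all protein-coding genes, and HOX genes have no high part.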

How the data were processed

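RNA was sequenced from 3 replicates of H9 cells after depletion of ribosomal RNA. The authors trimmed reads with trim_galore (0.4.4) and aligned them to GRCh38 with TopHat2 (2.1.1), per the study's methods and the submitters' processing notes, which also name Cufflinks (2.2.1). The deposited values are whole-number counts of reads per gene without normalization. No source used here names the counting tool, its annotation or its strand setting.

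Identifiers were matched to GENCODE 44 (56948 of 58051, 98.1%). TPM was computed from the deposited counts over the union of each gene's exons and averaged over replicates. After the study's methods, a mean below 0.01 TPM marked a gene as nonexpressed, and the other protein-coding genes were divided into 3 classes of equal size. A gene passed the limit with more than 3 counts in every replicate. Intervals are exact Poisson intervals (95%). Class calls were tested on simulated data. With 1 condition there was no test.

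Named genes were the HOX genes, genes inside the clusters that passed the limit, the 3 nearest protein-coding genes on each side, and lists of TALE cofactors, regulators and ParaHox genes (with EVX, MNX and MEOX genes), other homeobox genes and cell type markers. Other genes inside the clusters were named after their values were seen, as was the choice of promoter windows. The members and lists were chosen with earlier results of these data known. Values of some single genes are not reported here. Promoter windows were taken from RefSeq. Alternatives were other gene lengths, TMM (edgeR 4.0.16) and DESeq2 (1.42.0) factors, no mitochondrial genes, filterByExpr, thinned counts, other limits and leaving out each replicate. Scripts ran in Python 3.11.15 (scipy 1.17.1, pandas 2.3.3, numpy 2.4.6, matplotlib 3.10.9) and R 4.3.3.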

Additional observations from a re-analysis of the deposited data

Results flagged for a closer look

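Among the noncoding genes inside the 4 clusters, 1 gave a signal above the limit of 3 reads in every replicate. MIR3185, a microRNA gene that lies inside the HOXB cluster beside HOXB13, was that gene. It had 27, 24 and 16 reads, and 153, 117 and 106 TPM, with a mean of 125 TPM. Its 68 bases (chromosome 17, 48724408 to 48724475, minus strand) lie wholly within an exon of PRAC2 on the plus strand. Reads of PRAC2 and of MIR3185 cannot be told apart without strand.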

How the results depend on the processing

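Rescaling by TMM or DESeq2 factors, leaving out mitochondrial genes and thinning counts to 50% moved no HOX gene, cluster sum or position sum by more than its SD. The 25 genes without a read could not move under these settings. For genes read in 1 replicate the SD is above the mean (HOXA11, 0.0563 ± 0.0975 TPM), so that even a fall to 0 would stay within it. With only genes kept by filterByExpr, which removed every HOX gene but HOXB13 and so set them to 0, 38 HOX genes were below 0.01 TPM and 1 reached 1 TPM. The sums became 0 for HOXA, HOXC, HOXD, paralog groups 1 to 3 and paralog groups 4 to 8, and 8.25 TPM for HOXB. With exon bases unshared on the same strand as length, 1 gene reached 1 TPM, HOXB summed to 7.69 TPM and groups 9 to 13 to 6.23 TPM. With the longest transcript as length they summed to 8.31 and 6.39 TPM. HOXB13 fell to 5.93 and 6.06 TPM under these lengths, and since its own length did not change, the other genes' share of the TPM total did. With at least 1 count in every replicate as the limit, 5 genes passed, namely HOXB1, HOXB2, HOXB3, HOXB7 and HOXB13. A limit of 0.1 TPM called 32 genes nonexpressed.

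When replicates were left out in turn, 26 to 28 genes were below 0.01 TPM and 1 to 2 genes were at 1 TPM or more. Without replicate 3, HOXB7 fell to 0.958 TPM. The limit of 3 reads was passed by 1 to 2 genes, with HOXB7 added without replicate 2 and HOXB2 without replicate 3. Sums ranged from 0.134 to 0.311 TPM (HOXA), 9.52 to 11.5 (HOXB), 0.141 to 0.257 (HOXC), 0.106 to 0.263 (HOXD), 0.751 to 1.20 (groups 1 to 3), 1.18 to 1.88 (groups 4 to 8) and 7.63 to 9.38 (groups 9 to 13). At 8655155 to 12024802 reads per library, levels of genes other than HOXB13 rest on 15 reads or fewer. No paired analysis was possible because there is only 1 group.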

Other observations

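Homeobox genes outside the HOX clusters were also listed. Of 36 such genes, 16 had more than 3 reads in every replicate, or 44.4%, beside 71.9% of all protein-coding genes and 2.56% of HOX genes. Their median level was 0.527 TPM, beside 7.10 TPM for all protein-coding genes. Some genes with high levels, not all of them, were chosen for naming after their values were seen. Other genes of the head, such as EMX2 (0.112 TPM), OTX1 (0.180 TPM) and RAX (no read), were low. OTX2, which marks the future forebrain and midbrain, had 64.6, 76.2 and 104 TPM (mean 81.5 ± 20.2, SD, n = 3). GBX2, which acts at the border of midbrain and hindbrain, had 73.8, 63.8 and 56.2 TPM (mean 64.6 ± 8.82, SD, n = 3). SIX3, a gene of the forebrain and eye, had 45.6, 41.3 and 51.0 TPM (mean 46.0 ± 4.86, SD, n = 3), and IRX2 had 64.8, 72.0 and 90.5 TPM (mean 75.8 ± 13.3, SD, n = 3). Each of these replicates was above the highest replicate of HOXB13.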
